A study of Homo sapiens with 15 samples.

Results

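The 35 genes described here encode the core machinery of macroautophagy, from the ULK kinases to the cargo receptors, and were chosen by name from a table of 55773 gene names. Ribosome footprints, the short mRNA fragments that translating ribosomes shield from nuclease, were counted in 15 libraries of HEK293, a human cell line made from embryonic kidney. In 9 libraries the cells carried a Flag/HA tag fused to ZC3H7A, the tag fused to ZC3H7B, or the tag alone as the control (3 each), and all 9 are labelled as treated with doxycycline. Doxycycline at 1 µg/mL for 24 h switches the transgenes on, and these cells were lysed in a hypotonic buffer. ZC3H7A and ZC3H7B are related RNA-binding proteins with CCCH-type zinc fingers. The other 6 libraries are 3 labelled ZC3H7A/B-DD, a ZC3H7A knockout with a short hairpin RNA against ZC3H7B, and 3 labelled Parental, wild type with a control hairpin. Both hairpin lines were selected with puromycin, which was withdrawn before collection, then frozen as pellets and lysed with cycloheximide by another protocol, so they were compared only with each other. The growth protocol also names Flp-In T-REx 293 cells, a related line, and which samples came from it is not stated. Whether any line is 1 clone, and which promoter drives the transgenes, is not given in the sources used here. The labels call the Flag/HA libraries independent replicates and say nothing of this kind for the hairpin lines, whose p-values may measure technical spread only.

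Depth and identity were checked in every library. Recovered reads per library were 24703005 to 25922138 with ZC3H7A, 22661812 to 25939425 with ZC3H7B, 28261810 to 29515572 in the Flag/HA control, 20777204 to 42680589 in ZC3H7A/B-DD and 32955833 to 39064072 in Parental. ZC3H7A averaged 38044 ± 562 normalized counts in its line, against 6547 ± 52.6 in the Flag/HA control, and ZC3H7B averaged 27885 ± 927 in its line, against 2152 ± 71.8 in the control (SD, n = 3 each). The knockout and the hairpin did not show as a lower level. ZC3H7A had 7116, 1890.3 and 5066 normalized counts in the ZC3H7A/B-DD libraries, against 1885, 1819.9 and 2311 in Parental, and ZC3H7B had 3948, 2399 and 2969, against 2479, 2321 and 2609. Neither difference was called (log2 change 1.03, adjusted p = 0.0850, and 0.30, adjusted p = 0.198), and the group is called by its label below. Parental replicate 3 stood apart by chi-square divided by its degrees of freedom, which is close to unity for counting noise alone. This quotient was 64.1 and 87.8 against the other Parental libraries and 8.90 between those 2. It was also high between the ZC3H7A/B-DD libraries, at 17.8 to 25.1, against 1.63 to 5.70 within the Flag/HA groups. Results of ZC3H7A/B-DD over Parental are given with and without Parental replicate 3. All 10 HEK293 markers were detected in each group, with summed values of 34573 to 37242 with ZC3H7A, 32292 to 36644 with ZC3H7B and 30201 to 31863 in the Flag/HA control. These sums were 52392 to 57325 in the libraries labelled ZC3H7A/B-DD and 35409 to 43178 in Parental. VIM carries most of each sum: it averaged 41677 in ZC3H7A/B-DD, against 21922 in Parental, while KRT8 averaged 209 against 1098, KRT18 591 against 1125, CDH2 9398 against 10386 and WT1 355 against 521. The 5 blood markers, mostly HBB, summed to 237 to 312 with ZC3H7A, 318 to 432 with ZC3H7B and 599.6 to 792 in the Flag/HA control, and to 297 to 358 in the libraries labelled ZC3H7A/B-DD and 154 to 207 in Parental. HBG1 was at 0 in every library outside Parental. The 5 fibroblast markers summed to at most 251 in any Flag/HA library, and to 295 to 351 in the libraries labelled ZC3H7A/B-DD, against 376 to 534 in Parental. The part of these differences in the results below was not tested.

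Autophagy wraps cytoplasm or selected cargo in a double membrane that fuses with the lysosome. The ULK complex, held back by the mTORC1 kinase when nutrients are plentiful, starts the process. A class III phosphatidylinositol 3-kinase then marks the growing membrane, lipid transfer proteins feed it, and ubiquitin-like conjugation systems attach ATG8 proteins to it. ATG8 proteins bind receptors that carry cargo, and the transcription factor TFEB raises the genes of the pathway and of the lysosome. A footprint count follows both the amount of an mRNA and the ribosomes on each copy, which cannot be told apart here, and in bulk cells fewer cells of a type and less RNA per cell cannot be told apart either.

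The title of the series names codon-dependent regulation, and related members of the pathway differ in the third base of their codons. To show how, aligned stretches of 40 codons are printed for 2 pairs of paralogs whose footprints differed, from the GENCODE 29 coding sequences (GRCh38), with capitals at each codon that ends in A or T. ULK2 (chr17:19770829-19867936, minus strand) and ULK1 (chr12:131894651-131923167, plus strand) are the kinases that start autophagy. Their kinase domains are alike, and 38 of 40 amino acids are identical in the stretch shown (codons 152 to 191 of ULK2 and 159 to 198 of ULK1). Of those 38, 26 are written with different codons.
ULK2: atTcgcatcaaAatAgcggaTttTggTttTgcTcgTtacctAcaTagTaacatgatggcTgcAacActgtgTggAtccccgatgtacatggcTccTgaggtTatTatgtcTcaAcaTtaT
ULK1: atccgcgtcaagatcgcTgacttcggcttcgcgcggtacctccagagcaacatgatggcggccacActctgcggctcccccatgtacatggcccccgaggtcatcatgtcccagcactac
The ULK2 stretch ends in A or T at 25 codons and the ULK1 stretch at 2. ATG4C (chr1:62784135-62865513, plus strand) and ATG4D (chr19:10543895-10553418, plus strand) are proteases of ATG8 proteins. The stretches below cover codons 206 to 245 of ATG4C and 221 to 260 of ATG4D, with 30 identical amino acids, 21 of them written differently.
ATG4C: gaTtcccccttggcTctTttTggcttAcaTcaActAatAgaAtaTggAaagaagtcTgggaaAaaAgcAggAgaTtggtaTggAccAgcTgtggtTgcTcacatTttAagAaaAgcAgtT
ATG4D: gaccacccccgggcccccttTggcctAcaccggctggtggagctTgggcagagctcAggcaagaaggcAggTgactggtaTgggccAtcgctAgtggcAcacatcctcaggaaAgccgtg
Here 30 codons of ATG4C and 11 of ATG4D end in A or T. Over whole coding sequences, codons ending in A or T made up 52.5% of ULK2 and 16.5% of ULK1, and 70.7% of ATG4C and 21.1% of ATG4D.

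In control cells the pathway was read unevenly. Per kilobase of coding sequence, the highest mean levels in the Flag/HA control were those of the ATG8 genes GABARAPL2 (18933 normalized counts per kilobase), MAP1LC3B (17374) and GABARAP (3703), and the lowest were ULK2 (2.12) and MAP1LC3A (6.61). Parental libraries were likewise led by GABARAPL2 (10325), with the receptor SQSTM1 (4115) next and ULK2 lowest (10.0). Together the 35 genes held between 0.166% and 0.213% of the reads of every library. A value of 10 normalized counts in at least 3 libraries was needed for testing, and 34 members passed in each comparison. MAP1LC3A did not, with 0 to 10.7 normalized counts in Flag/HA cells and 4.34 to 13.6 in the hairpin lines.

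With ZC3H7A, ULK2 was read about 13-fold more than in the Flag/HA control and most other members that changed were lower. Of the 34 members tested, 6 were called higher and 18 lower at an adjusted p under 0.05 (limma), which is 70.6% called against 57.5% of all 15599 genes tested. By direction, 29.2% of all genes were called higher and 28.2% lower. The median log2 change of the members was -0.16, against 0.02 over all genes tested. Changes other than that of ULK2 were small: ULK2 was the 1 member called at 2-fold or more, as were 8.67% of all genes. The libraries of the 2 groups did not overlap for 23 members, against 63.9% of all genes.

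With ZC3H7B, ULK2 was again the member with the largest change, and 7 members were called higher and 16 lower. That is 67.6% of the 34, against 54.3% of all genes called (28.9% higher, 25.4% lower). The members' median log2 change was -0.12, against 0.04 over all genes. The 2 comparisons share the 3 control libraries, so each gene's values are set side by side below and no agreement between them is counted. Groups did not overlap for 28 members, against 61.1% of all genes.

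**Figure D1:**
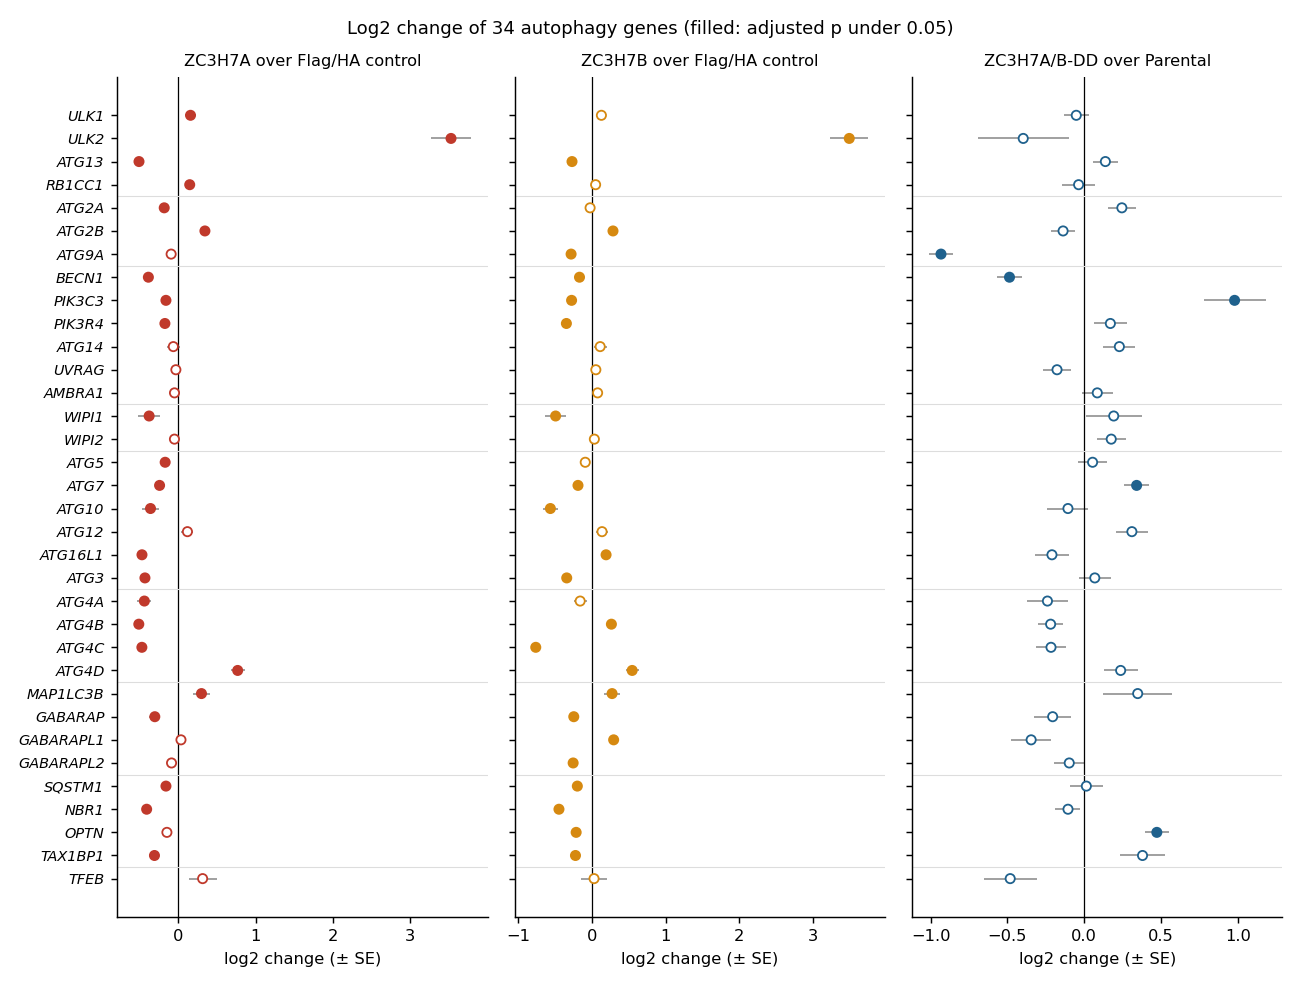
Log2 change (x axis, points, with the standard error as a line) of the 34 tested members in 3 comparisons, ordered by role, with filled points for an adjusted p under 0.05. ULK2 stands at 3.52 and 3.49 in the ZC3H7A and ZC3H7B panels while every other member lies between -0.76 and 0.77, and in the ZC3H7A/B-DD panel PIK3C3 and ATG9A lie farthest from 0, at 0.98 and -0.93.

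ULK complex. ULK2, a kinase that can stand in for ULK1 in starting autophagy, had 76.3, 99.2 and 82.2 normalized counts with ZC3H7A and 89.7, 71.1 and 90.9 with ZC3H7B, against 5.06, 7.18 and 7.54 in the Flag/HA control. All 6 overexpressing libraries lay far above all 3 controls. The log2 change was 3.52 ± 0.26 (SE) with ZC3H7A (adjusted p = 6.11e-11) and 3.49 ± 0.26 with ZC3H7B (adjusted p = 7.52e-11). Every control value lay under the 10 needed for testing, so ULK2 passed that filter only through the overexpressing libraries, where it was high. The members were also chosen with earlier results known, so these p-values are descriptions only. On the linear scale the ratio of means was 13.0 with ZC3H7A and 12.7 with ZC3H7B. These rest on few reads: 191 with ZC3H7A and 174 with ZC3H7B, against 16 in the control, which gives 95% counting intervals of 7.78 to 23.1 and 7.56 to 22.6 for the 2 ratios. ULK2 remained far below ULK1. It made up 7.59% to 10.2% of the ULK1 and ULK2 footprints with ZC3H7A and 7.13% to 9.69% with ZC3H7B, against 0.618% to 0.930% in the control.

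ULK1, the main kinase of the complex, had 929, 876 and 866 normalized counts with ZC3H7A and 844, 926 and 848 with ZC3H7B, against 814, 764 and 813 in the control. Its libraries lay above the controls in both lines. The log2 change was 0.16 with ZC3H7A (adjusted p = 0.0404), and 0.13 with ZC3H7B (adjusted p = 0.0983). The ULK1 call was lost without ZC3H7A replicate 1 or 2 or any 1 control library, and with no filter, quantile scaling or DESeq2.

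ATG13, the adaptor that binds the kinases to the complex, fell in both lines: it had 1280.1, 1288 and 1183 with ZC3H7A and 1448, 1634 and 1349 with ZC3H7B, against 1773, 1748 and 1804 in the control. Its log2 change was -0.51 ± 0.06 with ZC3H7A (adjusted p = 2.89e-07) and -0.27 ± 0.06 with ZC3H7B (adjusted p = 8.58e-04). RB1CC1, the scaffold also called FIP200, rose by 0.15 on the log2 scale with ZC3H7A (adjusted p = 0.00516) and stood at 0.05 with ZC3H7B (adjusted p = 0.339).

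The genes on either side of ULK2 on chromosome 17, were looked up after its values were seen. AKAP10 averaged 2023 normalized counts with ZC3H7A and 2177 with ZC3H7B, against 2167 in the control, and SPECC1 averaged 2737 and 2679, against 2589.9. Neither was called in either line. ALDH3A1, the aldehyde dehydrogenase gene next to ULK2 on the other side, was called higher in both lines from low values. It averaged 26.9 with ZC3H7A and 31.8 with ZC3H7B, against 13.7 in the control (log2 change 0.95 and 1.16, adjusted p = 0.0153 and 0.00428). SLC47A2, the next gene out, was too low to be tested, at 5.76 with ZC3H7A and 4.70 with ZC3H7B, against 2.52 in the control. Beyond it, ALDH3A2 fell, by 0.58 on the log2 scale with ZC3H7A and by 0.12 with ZC3H7B.

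**Figure D2:**
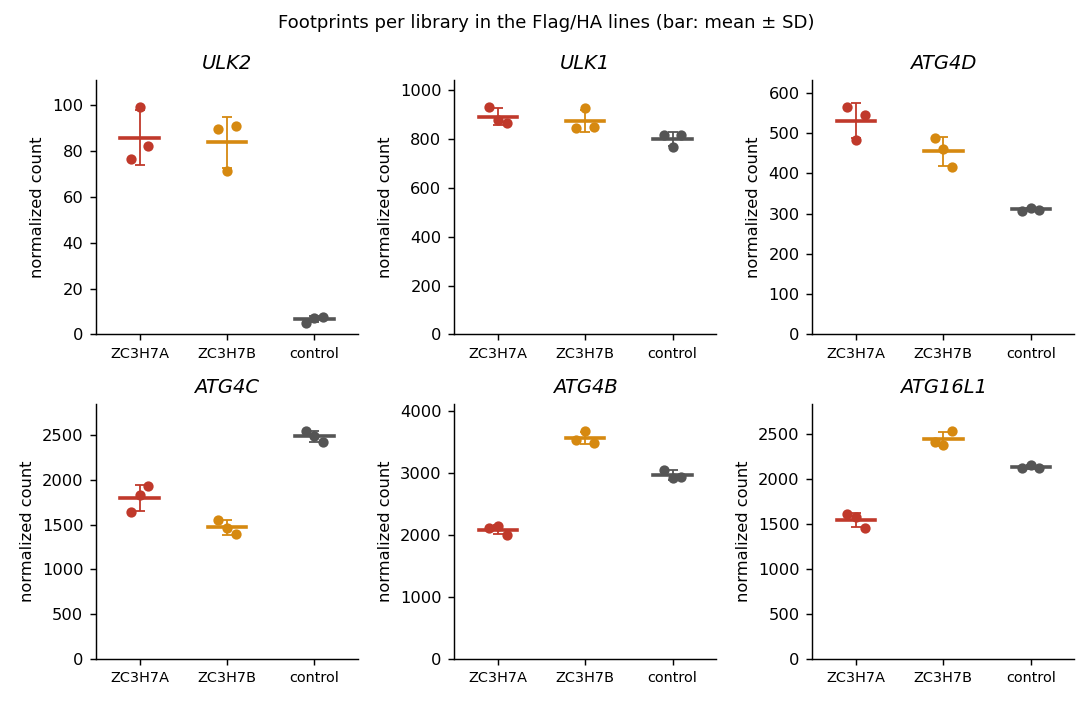
Normalized footprint counts (y axis, from 0) of 6 members in the ZC3H7A, ZC3H7B and Flag/HA control libraries; points are libraries, the thick bar is the mean and the thin bar the SD (n = 3). ULK2 and ATG4D lie above the control in both lines, ATG4C lies below it, and ATG4B and ATG16L1 lie below it with ZC3H7A and above it with ZC3H7B.

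Membrane supply. ATG2A and ATG2B, large proteins that pass lipids to the growing membrane, differed in direction. ATG2B rose, with a mean of 4394 ± 70.0 normalized counts with ZC3H7A and 4218 ± 127 with ZC3H7B, against 3459 ± 79.5 in the control (log2 change 0.35 and 0.29). ATG2A was lower with ZC3H7A (log2 change -0.18, adjusted p = 0.0246) and stood at -0.02 with ZC3H7B (adjusted p = 0.781). The ATG2A call was lost without ZC3H7A replicate 1 or 2 or any 1 control library, and with no filter. ATG9A, the scramblase of the vesicles that seed the membrane, fell by 0.28 on the log2 scale with ZC3H7B (adjusted p = 1.99e-04) and stood at -0.09 with ZC3H7A (adjusted p = 0.179).

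Class III phosphatidylinositol 3-kinase and its effectors. Among all genes, 57.5% were called with ZC3H7A (28.2% lower) and 54.3% with ZC3H7B (25.4% lower). Of the 6 genes of the kinase complexes, 3 were called lower and none higher in each line. These were the catalytic subunit PIK3C3 (log2 change -0.16 with ZC3H7A and -0.28 with ZC3H7B), its regulatory partner PIK3R4 (-0.17 and -0.35) and BECN1, the scaffold that binds BCL2 (-0.39 and -0.17). With quantile scaling the PIK3C3 and PIK3R4 changes with ZC3H7A shrank to -0.06 and -0.08 and were not called, and the BECN1 call with ZC3H7B was lost without ZC3H7B replicate 2 or 3. BECN1 had 1309.6, 1397 and 1322 normalized counts with ZC3H7A, against 1736, 1753 and 1773 in the control, with no overlap. ATG14 and UVRAG, which direct the kinase to autophagosomes and to endosomes, and AMBRA1, which ties it to the ULK complex, were called in neither line, with log2 changes between -0.06 and 0.11. WIPI1, which binds the lipid that the kinase makes, had 174, 138 and 149 normalized counts with ZC3H7A and 138, 157 and 129 with ZC3H7B, against 200.0, 169 and 233 in the control. The ZC3H7B libraries lay below every control and 1 ZC3H7A library overlapped them. The log2 change was -0.38 ± 0.14 with ZC3H7A (adjusted p = 0.0302) and -0.49 ± 0.14 with ZC3H7B (adjusted p = 0.00601), and without control replicate 3 neither was called (-0.26 and -0.38). The ZC3H7A call was also lost without ZC3H7A replicate 2 or 3 or control replicate 1. WIPI2, its more abundant relative, stood at -0.05 and 0.03 and was not called.

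Conjugation of ATG8. Of 6 genes, 5 fell and none rose with ZC3H7A, and 3 fell and 1 rose with ZC3H7B. Among all genes, 28.2% fell and 29.2% rose with ZC3H7A, and 25.4% fell and 28.9% rose with ZC3H7B. ATG7, the activating enzyme of both conjugation systems, fell by 0.24 with ZC3H7A and by 0.19 with ZC3H7B on the log2 scale. ATG3, which transfers ATG8 proteins to lipid, averaged 1836 ± 36.5 normalized counts with ZC3H7A and 1951 ± 26.2 with ZC3H7B, against 2473 ± 98.6 in the control, a log2 change of -0.43 and -0.34. ATG10, which joins ATG12 to ATG5, had 279, 253 and 323 normalized counts with ZC3H7A and 249, 254 and 235 with ZC3H7B, against 337, 374 and 381 in the control. No overexpressing library reached the control range. Its log2 change was -0.36 ± 0.11 (adjusted p = 0.00603) and -0.56 ± 0.11 (adjusted p = 9.12e-05).

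ATG16L1, which places the ATG12 and ATG5 conjugate on the membrane, went opposite ways. It had 1604, 1575 and 1450.3 normalized counts with ZC3H7A and 2413, 2373 and 2526 with ZC3H7B, against 2124, 2156 and 2117 in the control. The log2 change was -0.47 ± 0.05 with ZC3H7A (adjusted p = 4.53e-08) and 0.19 ± 0.05 with ZC3H7B (adjusted p = 0.00290). ATG5 fell by 0.17 with ZC3H7A (adjusted p = 0.0122), a call lost without ZC3H7A replicate 1, ZC3H7A replicate 3 or control replicate 1, and stood at -0.09 with ZC3H7B (adjusted p = 0.177). ATG12 stood at 0.12 and 0.14 and was not called. Of its 28-base windows of coding sequence, 45.2% are shared with another annotated gene, so reads of ATG12 are uncertain where the counting split or dropped such reads.

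ATG4 proteases. These enzymes trim new ATG8 proteins and later release them from the membrane. All 4 genes were called with ZC3H7A, where 57.5% of all genes were called. ATG4D rose: it had 565, 482 and 545 normalized counts with ZC3H7A and 488, 461 and 415 with ZC3H7B, against 308, 315 and 309 in the control. The log2 change was 0.77 ± 0.09 with ZC3H7A (adjusted p = 1.06e-07) and 0.55 ± 0.09 with ZC3H7B (adjusted p = 1.57e-05). ATG4C fell: it had 1644, 1826 and 1929 with ZC3H7A and 1549, 1462 and 1392 with ZC3H7B, against 2542, 2496 and 2422. All 6 overexpressing libraries lay under the lowest control, at a log2 change of -0.47 ± 0.06 (adjusted p = 3.29e-07) and -0.76 ± 0.06 (adjusted p = 1.52e-10).

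ATG4B, the most active of the family on most ATG8 proteins, was the other member that moved apart in the 2 lines. It had 2116, 2139 and 2005 normalized counts with ZC3H7A and 3543, 3674 and 3481 with ZC3H7B, against 3055, 2913 and 2937 in the control. The 3 groups did not overlap, and the log2 change was -0.51 ± 0.05 with ZC3H7A (adjusted p = 2.75e-09) and 0.26 ± 0.05 with ZC3H7B (adjusted p = 4.46e-05). ATG4A had 363, 415 and 369 normalized counts with ZC3H7A and 480.5, 494 and 418 with ZC3H7B, against 552, 496 and 504 in the control. It was called lower with ZC3H7A (log2 change -0.44, adjusted p = 2.00e-04) and not with ZC3H7B (-0.16, adjusted p = 0.137). As a share of all ATG4 footprints, ATG4B held 41.4% to 45.1% with ZC3H7A and 58.5% to 61.0% with ZC3H7B, against 46.8% to 47.6% in the control. ATG4C held 35.1% to 39.8% with ZC3H7A and 24.0% to 25.6% with ZC3H7B, against 39.2% to 40.1% in the control.

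ATG8 proteins. These small ubiquitin-like proteins coat the membrane and bind receptors. MAP1LC3B had 8307, 7771 and 7666 normalized counts with ZC3H7A and 9921, 7005 and 6734 with ZC3H7B, against 5046, 7551 and 6949 in the control. The ZC3H7B and control libraries overlapped, and control replicate 1 was the lowest. The log2 change of 0.30 with ZC3H7A (adjusted p = 0.0269) fell to 0.13 without that control library, and was also lost without ZC3H7A replicate 1 (0.27). The 0.27 with ZC3H7B (adjusted p = 0.0450) fell to 0.10 without control replicate 1 and to 0.10 without ZC3H7B replicate 1, so both calls rest on single libraries. GABARAP fell by 0.30 with ZC3H7A (adjusted p = 6.72e-04) and by 0.25 with ZC3H7B (adjusted p = 0.00442). GABARAPL1 rose by 0.30 with ZC3H7B (adjusted p = 6.35e-04) and stood at 0.04 with ZC3H7A (adjusted p = 0.669), while GABARAPL2 fell by 0.25 with ZC3H7B (adjusted p = 2.71e-04) and stood at -0.09 with ZC3H7A (adjusted p = 0.171). Shared windows make this family the least certain: 86.3% of those of MAP1LC3B, mostly with MAP1LC3B2, 80.4% of those of GABARAP and 18.1% of those of GABARAPL1 are found in other annotated genes. MAP1LC3B2 itself averaged 18.0 normalized counts with ZC3H7A and 18.6 with ZC3H7B, against 23.1 in the control. How reads with several positions were counted is not given in the sources used here.

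Receptors and TFEB. The 4 receptors all fell with ZC3H7B, and 3 fell with ZC3H7A, where 25.4% and 28.2% of all genes were called lower. NBR1, a receptor of ubiquitinated cargo, had 3534, 3437 and 3251 normalized counts with ZC3H7A and 3399.8, 3221 and 3324 with ZC3H7B, against 4743, 4541 and 4277 in the control. Its highest overexpressing library stayed under the lowest control, at a log2 change of -0.41 ± 0.05 (adjusted p = 1.69e-07) and -0.45 ± 0.05 (adjusted p = 4.59e-08). TAX1BP1, also a ubiquitin receptor, fell by 0.31 with ZC3H7A and by 0.22 with ZC3H7B, and SQSTM1, known as p62, by 0.16 and by 0.20. With quantile scaling SQSTM1 was not called with ZC3H7A (-0.09) nor TAX1BP1 with ZC3H7B (-0.09), and without ZC3H7A replicate 3 the SQSTM1 change with ZC3H7A was not called (-0.12). OPTN, a receptor of damaged mitochondria and bacteria, fell by 0.21 with ZC3H7B (adjusted p = 0.00577) and stood at -0.15 with ZC3H7A (adjusted p = 0.0502). TFEB had 149, 119 and 90.0 normalized counts with ZC3H7A and 102, 92.6 and 92.4 with ZC3H7B, against 103, 99.3 and 80.5 in the control, and was not called.

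Set directly against each other, the ZC3H7A and ZC3H7B lines differed in 10 members, 4 higher and 6 lower with ZC3H7A, or 29.4% of the 34 against 36.6% of all genes called (18.4% higher, 18.2% lower). With TMM scaling, and with edgeR, 13 were called, 7 higher and 6 lower, so the balance of directions is not settled. The largest differences were those of ATG4B (log2 -0.77 ± 0.05, adjusted p = 5.79e-12) and ATG16L1 (-0.66 ± 0.05, adjusted p = 3.41e-10), whose libraries are given above. ATG4C was higher with ZC3H7A (0.29, adjusted p = 3.21e-04) and ATG4A lower (-0.28, adjusted p = 0.0167). The ATG4A call was lost without any 1 of ZC3H7A replicates 1 and 3 and ZC3H7B replicates 1 and 2. ULK2 differed by 0.03 ± 0.26 (adjusted p = 0.940). Direct differences were also called for PIK3R4, ATG9A and GABARAPL2 (higher with ZC3H7A) and GABARAPL1, ATG13 and BECN1 (lower), at 0.26 or less in size. The ATG9A call was lost without ZC3H7A replicate 1 or 2, that of GABARAPL2 without ZC3H7A replicate 2 or ZC3H7B replicate 3, and that of ATG13 without ZC3H7B replicate 2.

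In the libraries labelled ZC3H7A/B-DD few members changed. Of 34 tested, 3 rose and 2 fell, or 14.7% against 24.5% of all 17092 genes tested (11.0% higher, 13.5% lower). The members' median log2 change was -0.01, against 0.02 over all genes. Without Parental replicate 3, 6 members were called higher and 3 lower, against 33.1% of all genes, the added ones being ATG2A, PIK3R4 and TAX1BP1 (higher) and GABARAPL1 (lower). Groups did not overlap for 16 members, against 40.8% of all genes.

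PIK3C3, the catalytic subunit of the lipid kinase, had 3395, 3133 and 2829.8 normalized counts in the libraries labelled ZC3H7A/B-DD, against 1214, 1418 and 2284 in Parental. Parental replicate 3 was the highest of its group and still under every ZC3H7A/B-DD library. The log2 change was 0.98 ± 0.20 (adjusted p = 0.00874), and 1.24 without Parental replicate 3. ATG9A had 1693, 1684 and 1628 in ZC3H7A/B-DD, against 3269, 3292 and 2998 in Parental. It fell by 0.93 on the log2 scale (adjusted p = 1.07e-04), and by 0.98 without Parental replicate 3. Of its 28-base windows 29.6% are shared with AC068946.2, an annotated protein-coding gene that overlaps it on the same strand, so its reads are uncertain to that extent.

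BECN1 had 913, 940.4 and 979 in ZC3H7A/B-DD, against 1338, 1305 and 1325 in Parental, a log2 change of -0.49 ± 0.08 (adjusted p = 0.00312), and -0.48 without Parental replicate 3.

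OPTN rose, with 1406, 1411 and 1376 normalized counts in ZC3H7A/B-DD, against 1014, 1016 and 991 in Parental (log2 change 0.47 ± 0.08, adjusted p = 0.00308, and 0.46 without Parental replicate 3). ATG7 had 1892, 1843 and 1801 in ZC3H7A/B-DD, against 1467, 1395 and 1509 in Parental. The groups did not overlap, and the log2 change was 0.34 ± 0.08 (adjusted p = 0.0144), or 0.37 without Parental replicate 3. The ATG7 call was lost without Parental replicate 2 (adjusted p = 0.0878). ULK2 had 17.1, 23.6 and 30.4 in ZC3H7A/B-DD, against 24.3, 35.6 and 33.5 in Parental, from 66 and 104 reads. The groups overlapped, and the ratio of 0.744 had a 95% counting interval of 0.538 to 1.02. Its log2 change was -0.40 ± 0.29 (adjusted p = 0.360), and -0.34 without Parental replicate 3 (adjusted p = 0.499). ULK1 had 1244, 1293 and 1206 in ZC3H7A/B-DD, against 1334, 1237 and 1309.5 in Parental (log2 change -0.05, adjusted p = 0.679, and -0.04 without Parental replicate 3). MAP1LC3B had 1258, 1536 and 1421 in ZC3H7A/B-DD, against 1660.1, 993 and 808 in Parental. The groups overlapped at log2 0.35 (adjusted p = 0.292), or 0.13 without Parental replicate 3 and 0.64 without Parental replicate 1, where it was called.

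**Figure D3:**
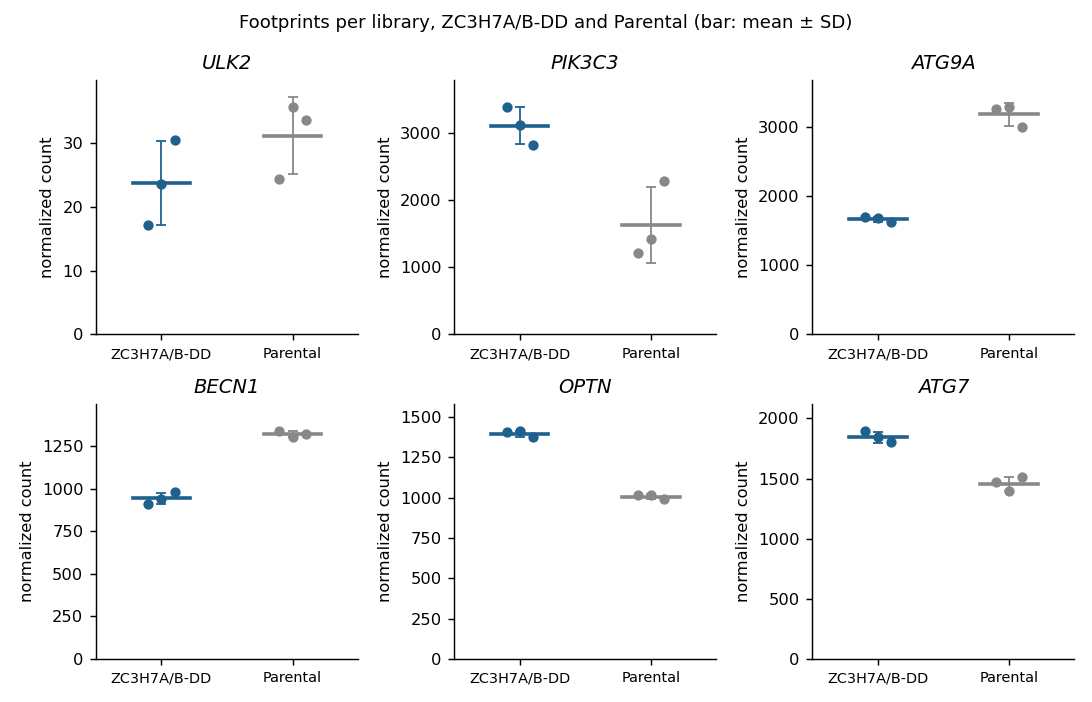
Normalized footprint counts (y axis, from 0) of ULK2 and the 5 called members in the libraries labelled ZC3H7A/B-DD and in Parental; points are libraries, the thick bar is the mean and the thin bar the SD (n = 3). PIK3C3, OPTN and ATG7 lie above Parental, ATG9A and BECN1 below it, and ULK2 overlaps, while 1 Parental library of PIK3C3 stands at 2284 beside 1214 and 1418.

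Across the members, log2 change and codon ending were only loosely related. The share of codons ending in A or T ran from 16.1% (MAP1LC3A) to 70.7% (ATG4C) with a median of 47.8%, against 40.9% over 12855 tested genes with a coding sequence. Spearman's rho between this share and the log2 change was -0.24 with ZC3H7A and -0.30 with ZC3H7B over the 34 members, and -0.29 and -0.34 without ULK2. Over all 12855 genes it was -0.26 and -0.29. In the libraries labelled ZC3H7A/B-DD it was 0.09 over the members and 0.10 over 13018 genes. Points share the same libraries, and base composition goes with gene length and level, so these values are descriptions across genes.

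Paralogs showed both patterns. ATG4C, at 70.7%, fell where ATG4D, at 21.1%, rose. ATG4A (58.4%) and ATG4B (30.9%) both fell with ZC3H7A, by 0.44 and 0.51 on the log2 scale. With ZC3H7B, ATG4B rose by 0.26 and ATG4A stood at -0.16 and was not called. ULK2 (52.5%) rose far more than ULK1 (16.5%), and ATG2B (62.0%) rose in both lines where ATG2A (22.5%) did not. RB1CC1, at 69.8% among the most A- and T-ending members, was higher with ZC3H7A. Members called lower with ZC3H7A had a median share of 50.3% (22.5% to 70.7%, n = 18), and members called higher 46.4% (16.5% to 69.8%, n = 6). The median of members not called was below both, at 41.5% (23.0% to 55.4%, n = 10).

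**Figure D4:**
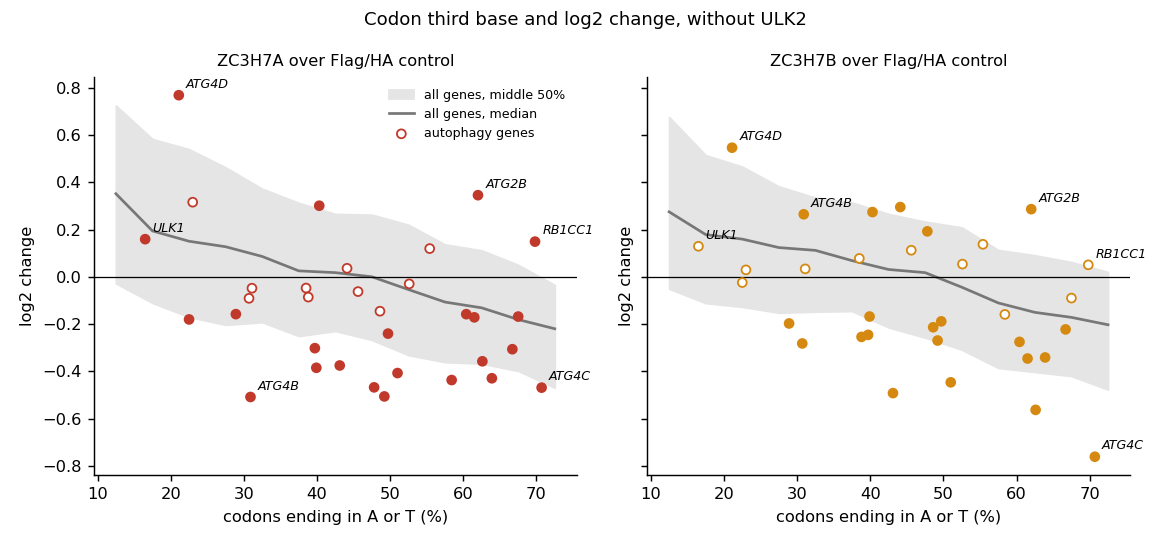
Log2 change (y axis) against the share of codons ending in A or T (x axis, %) for the 33 tested members other than ULK2, with filled points for an adjusted p under 0.05; the line and band give the median and middle 50% of all tested genes. ATG4D lies at the upper left and ATG4C at the lower right in both panels, and ATG2B and RB1CC1 lie above the median line at high shares.

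TFEB and its relatives bind E-box motifs in promoters of lysosomal and autophagy genes, so the RefSeq promoters (GRCh38.p14, 250 bases before to 50 after the gene start) were searched on both strands, which read the same for these palindromes. TCACGTGA was in 1 of the 31 members with a promoter, ATG3, against 1.04% of 27305 promoters. The core CACGTG, which the longer motif contains, was in 2 (6.45%), ATG3 and ATG14, against 7.43%. The sites are shown with 10 bases on each side and the core in capitals, for ATG3 at chr3:112561942-112561967 and chr3:112561965-112561990 and for ATG14 at chr14:55411836-55411861, all on the minus strand.
ATG3 first site: agtctagtgtCACGTGaggccccggt
ATG3 second site: tttctcacgtCACGTGccgggagagt
ATG14 site: aacaaaatccCACGTGactggctctc
A match is a description of these letters and was not tested as a binding site.

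The wider pathway was counted in 6 lists of 108 genes outside the members, of which 106 were tested. With ZC3H7A 16 rose and 54 fell, with ZC3H7B 17 rose and 44 fell, and in the libraries labelled ZC3H7A/B-DD 13 rose and 20 fell (13 and 27 without Parental replicate 3). These are 66.0%, 57.5% and 31.1% of the tested list genes, against 57.5%, 54.3% and 24.5% of all genes called in the same comparisons, so the share with ZC3H7B is near that of all genes. Without Parental replicate 3, 33.1% of all genes were called for ZC3H7A/B-DD over Parental. With ZC3H7A and with ZC3H7B the called shares were 82.8% and 69.0% of the lysosomal list, 54.5% and 72.7% of the ULK regulators, 64.3% and 64.3% of the other lipid and membrane genes, and 63.2% and 47.4% of the other receptors. The list with the most genes called lower was that of lysosomal proteins and the TFE factors. Of its 29 tested genes 20 fell and 4 rose with ZC3H7A (median log2 change -0.35, against 0.02 over all genes), and 18 fell and 2 rose with ZC3H7B (median -0.32, against 0.04). GAA, the enzyme that breaks down glycogen in lysosomes, averaged 739 ± 52.2 normalized counts with ZC3H7A, against 1922 ± 101 in the control (log2 change -1.38, adjusted p = 1.71e-14). TPP1, a lysosomal peptidase, averaged 876 ± 119 with ZC3H7A, against 2037 ± 117 in the control (-1.22, adjusted p = 2.26e-12). With ZC3H7B it averaged 1555 ± 55.9. LAMP2, a main protein of the lysosomal membrane, averaged 4520.4 ± 306 with ZC3H7B, against 11235 ± 319 in the control (-1.32, adjusted p = 6.56e-16). With ZC3H7A it averaged 7652 ± 370. SCARB2, a receptor that brings an enzyme to lysosomes, fell by 0.98 with ZC3H7B. TFE3, a relative of TFEB, rose by 0.34 with ZC3H7A and by 0.40 with ZC3H7B on the log2 scale, and the protease gene CTSZ rose by 0.36 with ZC3H7A. In the libraries labelled ZC3H7A/B-DD 2 rose and 7 fell (1 and 10 without Parental replicate 3), among them IDUA, an enzyme of glycosaminoglycan breakdown (-0.82, and -0.98 without Parental replicate 3). The called share of the lysosomal list there was 31.0%, against 24.5% of all genes.

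Of 21 genes of mTORC1 and its lysosomal anchors, 4 rose and 10 fell with ZC3H7A, and 5 rose and 6 fell with ZC3H7B, or 66.7% and 52.4% called, against 57.5% and 54.3% of all genes. MTOR, the kinase that holds the ULK complex back, averaged 5102 ± 197 normalized counts with ZC3H7A, against 8752 ± 235 in the control (log2 change -0.78, adjusted p = 6.17e-13). It was also lower with ZC3H7A than with ZC3H7B, where it averaged 8482 ± 198 (-0.73, adjusted p = 4.04e-12). RRAGB, a GTPase that brings mTORC1 to the lysosome, rose by 0.70 with ZC3H7A and by 0.85 with ZC3H7B. DEPTOR, an inhibitor of mTOR, rose by 0.69 with ZC3H7A, and AKT1S1, another inhibitor, by 0.65 with ZC3H7B. In the libraries labelled ZC3H7A/B-DD 3 rose and 6 fell (2 and 8 without Parental replicate 3). With all libraries that is 42.9% of the list called, against 24.5% of all genes. MTOR averaged 3754 ± 148 in ZC3H7A/B-DD, against 6899 ± 418 in Parental (-0.88, adjusted p = 2.03e-04, and -0.93 without Parental replicate 3).

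Among 11 genes of the ULK complex and the AMPK kinases that act on it, 3 rose and 3 fell with ZC3H7A, and 4 rose and 4 fell with ZC3H7B. STK11, the kinase that activates AMPK, averaged 1392 ± 30.5 with ZC3H7B, against 765 ± 32.7 in the control (log2 change 0.86, adjusted p = 3.32e-11). Its mean with ZC3H7A was 918 ± 38.2. CAB39, which STK11 needs for activity, averaged 2876 ± 114 with ZC3H7A, against 4918 ± 58.2 in the control (-0.77, adjusted p = 4.00e-11). CAB39 was also lower with ZC3H7B, at 4021 ± 380 (-0.29, adjusted p = 8.62e-05). Against Parental, 2 rose and 4 fell in ZC3H7A/B-DD, with and without Parental replicate 3. With all libraries that is 54.5% of the list called, against 24.5% of all genes. Of 14 genes of other lipid and membrane steps, 2 rose and 7 fell with ZC3H7A and 3 rose and 6 fell with ZC3H7B. BCL2, which holds BECN1 back, rose by 0.61 with ZC3H7A and by 0.57 with ZC3H7B, while TMEM41B, a scramblase of early autophagosomes, fell by 0.75 with ZC3H7B. TMEM41B averaged 2710 ± 50.6 with ZC3H7A, against 3701 ± 28.9 in the control. For ZC3H7A/B-DD over Parental 2 rose and 1 fell, with and without Parental replicate 3. With all libraries that is 21.4% of these genes called, against 24.5% of all genes.

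Of 12 genes of fusion with the lysosome, 5 fell and none rose with ZC3H7A, while with ZC3H7B 2 rose and 2 fell. These are 41.7% and 33.3% of the list, below the 57.5% and 54.3% of all genes called. STX17, the syntaxin of finished autophagosomes, averaged 931 ± 26.5 with ZC3H7B, against 1359 ± 40.6 in the control (log2 change -0.54, adjusted p = 4.03e-08). Its mean with ZC3H7A was 1216 ± 66.1. Against Parental, 4 rose and none fell in ZC3H7A/B-DD (4 and 1 without Parental replicate 3), the largest being VPS33A (0.59, and 0.70 without Parental replicate 3) and VPS18 (0.55 and 0.73), subunits of the tethering complex. The called share of the fusion list there was 33.3%, against 24.5% of all genes. Of 19 other receptors, 3 rose and 9 fell with ZC3H7A and 1 rose and 8 fell with ZC3H7B. SEC62, a receptor of the endoplasmic reticulum, averaged 5966 ± 158 with ZC3H7A and 4772 ± 156 with ZC3H7B, against 9015 ± 226 in the control (-0.60 and -0.92). FKBP8, a receptor of mitochondria, rose by 0.50 with ZC3H7A and by 0.48 with ZC3H7B. PINK1, the kinase that flags damaged mitochondria, averaged 916 ± 51.1 in the libraries labelled ZC3H7A/B-DD, against 1979 ± 149.6 in Parental (-1.11, adjusted p = 9.09e-05, and -1.17 without Parental replicate 3), where none of this list rose and 2 fell (2 and 3 without Parental replicate 3). The called share of the other receptors there was 10.5%, against 24.5% of all genes.

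**Figure D5:**
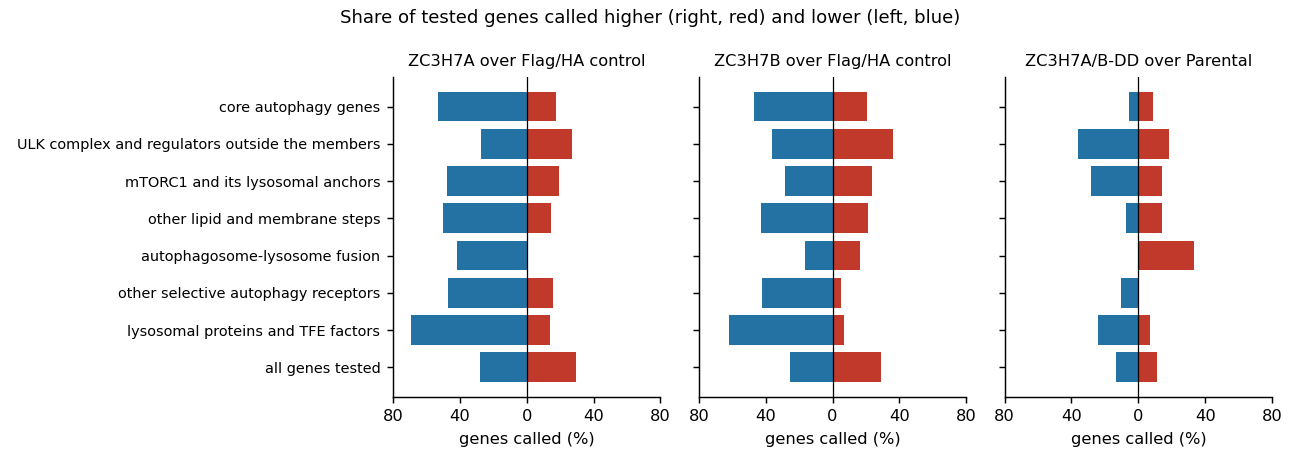
Share of tested genes called higher (right of 0, red) and lower (left of 0, blue), in %, for the 34 tested members, the 6 lists of the wider pathway and all genes tested, in 3 comparisons. The lysosomal list has the longest bars to the left with ZC3H7A (20 of 29) and ZC3H7B (18 of 29), and the bars of the ZC3H7A/B-DD panel are shorter than those of the other panels for the members.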

How the data were processed

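The deposited table holds normalized footprint signal, normalized counts per its own name, for 55773 gene names in 15 libraries, normalized by the authors before they deposited it. Per the submitters' processing notes, hg38 and hg19 were the genome builds, and DESeq2, HTSeq, STAR, Bowtie and cutadapt the tools, with neither version nor order stated. Not given in the sources used here are the build of the alignment, the footprint lengths kept, the use of strand and the treatment of reads with several positions. Of the 35 members, 15 overlap a protein-coding gene on the opposite strand and 2 one on the same strand, so their reads could not be told apart where strand was not used. All values of a library were whole multiples of 1 step within 0.001 reads (100% came out whole), as reads divided by 1 factor per library would be, so reads and depth could be recovered. Spreadsheet dates stand in place of 28 names, and 4 rows repeat a name, which stayed in the tests as rows of their own and are not named here. Counting intervals cover counting error only.

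Log2(value + 1) was fitted by limma (version 3.58.1, under R 4.3.3) with lmFit, then eBayes with a trend, so changes of low genes are understated. Genes needed 10 or more in at least 3 libraries of the fit, p-values were adjusted by Benjamini-Hochberg over all genes tested, and the threshold was 0.05. The 9 Flag/HA libraries shared 1 fit and the other 6 were fitted apart. Fold changes are ZC3H7A or ZC3H7B over the Flag/HA control, ZC3H7A over ZC3H7B, and ZC3H7A/B-DD over Parental. On the recovered reads edgeR 4.0.16 and DESeq2 1.42.0 were run as alternatives, beside other pseudocounts, filters, scalings, array weights, a replicate block and each library left out. Simulated counts with known changes were used to check the fitting step.

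The members and lists were chosen with earlier results of these data known. Values in every library are given for ULK1, ULK2 and, per comparison with a control, the 6 called members with the largest changes whose groups do not overlap and whose mean reaches 20 in either group (4 between the overexpressing lines), the MAP1LC3 and GABARAP genes as a family, and up to 2 called genes per direction of each list. Coding sequences and coordinates are from GENCODE 29 (GRCh38) and promoters from RefSeq (GRCh38.p14). They need not match the build of the alignment.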

Additional observations from a re-analysis of the deposited data

Results flagged for a closer look

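For 10 of the 34 members tested, a difference between the ZC3H7A and ZC3H7B lines was called (limma, adjusted p under 0.05). That is 29.4% of them, against 36.6% of all genes tested. Under every alternative run 6 of the 10 calls were kept: ATG16L1, ATG4B, ATG4C, BECN1, GABARAPL1 and PIK3R4. ATG4B differed by -0.77 and ATG16L1 by -0.66 on the log2 scale, ZC3H7A over ZC3H7B, and both were lower than the control with ZC3H7A and higher with ZC3H7B. ATG4A differed by -0.28, GABARAPL1 by -0.26, ATG13 by -0.24 and BECN1 by -0.22. ATG4C differed by 0.29, ATG9A by 0.19, and PIK3R4 and GABARAPL2 by 0.17 each.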

How the results depend on the processing

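Under every alternative run, 16 of 24 calls with ZC3H7A, 19 of 23 with ZC3H7B, 6 of 10 between the lines and 4 of 5 in the libraries labelled ZC3H7A/B-DD were kept. Leaving out 1 library at a time gave 19 to 25 called members with ZC3H7A, 22 to 23 with ZC3H7B, 8 to 11 between the lines and 4 to 9 in ZC3H7A/B-DD. Over all genes these ranges were 8113 to 9224, 7563 to 8584, 4987 to 5619 and 1895 to 5560 called. In ZC3H7A/B-DD 9 members were called without Parental replicate 3. There 2558 genes were called without ZC3H7A/B-DD replicate 3, 2452 without Parental replicate 1, 1895 without Parental replicate 2 and 5560 without Parental replicate 3, against 4182 with all libraries. With array weights 13 members and 7577 genes were called there; the cause was not tested.

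Between the overexpressing lines the difference of ULK1 turned to -0.00101 without ZC3H7A replicate 1, and that of ULK2 to -0.0738 without ZC3H7A replicate 2 and -0.0804 without ZC3H7B replicate 2; neither was called. With 1 library left out these differences ran from -0.00101 to 0.0734 for ULK1 and from -0.0804 to 0.113 for ULK2. Libraries with the same replicate number did not deviate together (correlations of -0.057 to 0.092 and -0.133 to 0.033), so the numbers were not taken as pairs. With a replicate block, 25 members were called with ZC3H7A, 23 with ZC3H7B, 11 between the lines and 5 in ZC3H7A/B-DD, with 9169, 8714, 6026 and 2992 genes. On the recovered reads edgeR called 9059 genes with ZC3H7A, 8494 with ZC3H7B, 5856 between the lines and 4132 in ZC3H7A/B-DD. Depth limits ULK2, which rests on 16 reads in the control.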
